A study of Mus musculus with 8 samples.

Results

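The phagocyte NADPH oxidase is represented here by 5 genes, Cybb, Cyba, Ncf1, Ncf4 and Rac2. They were picked by name from a read count table of 43346 mouse genes, and all 5 were among the 12461 genes with enough counts to be tested. Polyadenylated RNA came from 3 kinds of macrophage, each left unstimulated (0 h, called at rest) or given lipopolysaccharide (LPS) for 3 h. BMDM, macrophages grown from mouse bone marrow in medium conditioned by L929 cells, had 2 libraries per state. The cells labelled hMPDM had 1 library per state that could be matched to a sample, and RAW 264.7 (RAW below), a macrophage-like tumour line of mouse origin grown in DMEM with 10% serum, also had 1. The table has 2 more columns whose names begin with hMPDM and match no sample label. They were not analysed here, so the hMPDM values lack a replicate check that they might give. No transgene, deletion or further agent is named for any group. No source used here gives the LPS dose, the mouse strain and age, or the meaning of hMPDM. Nothing in the labels shows that the 2 BMDM libraries of a state came from different cultures, and p-values therefore reflect a spread between libraries that may be technical.

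The oxidase moves electrons from NADPH in the cytosol across the membrane to oxygen, and so makes superoxide in the phagosome or outside the cell. Cybb encodes gp91phox, the subunit that carries the electrons, and Cyba encodes p22phox, which holds it stable in the membrane. In a resting phagocyte the other parts named here wait in the cytosol: Ncf1 encodes the organizer p47phox, Ncf4 encodes p40phox, which binds a phosphoinositide of the phagosome, and Rac2 encodes the GTPase that switches the complex on. Loss of gp91phox, p22phox, p47phox or p40phox in people causes chronic granulomatous disease, in which phagocytes take up microbes and fail to kill them.

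Promoters are shown first, as a description, and a link between them and the LPS responses was not tested. RefSeq (GRCm38.p6, the mm10 assembly) gave a promoter window for 3 of the 5, Cybb, Ncf1 and Cyba. Each window runs from 250 bases before to 50 bases after the gene's start, is printed 5′ to 3′ on the gene's strand, and lies on the minus strand of the chromosome. Capitals mark matches, on either strand, to 2 motifs searched: GAAA followed after any 2 bases by GAAA, the repeat that interferon regulatory factors bind, and GAGGAA, a core bound by PU.1, the Ets factor encoded by Spi1. The Cybb window is chrX:9469275-9469574 and lies inside the span the count table gives the gene, the Ncf1 window is chr5:134229576-134229875, and the Cyba window is chr8:122432891-122433190.
Cybb: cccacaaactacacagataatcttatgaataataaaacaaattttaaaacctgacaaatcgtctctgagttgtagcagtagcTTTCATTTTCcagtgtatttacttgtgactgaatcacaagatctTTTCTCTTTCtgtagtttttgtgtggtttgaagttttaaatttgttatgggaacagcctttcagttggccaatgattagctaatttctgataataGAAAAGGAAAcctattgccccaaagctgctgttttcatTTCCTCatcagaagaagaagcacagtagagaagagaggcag
Ncf1: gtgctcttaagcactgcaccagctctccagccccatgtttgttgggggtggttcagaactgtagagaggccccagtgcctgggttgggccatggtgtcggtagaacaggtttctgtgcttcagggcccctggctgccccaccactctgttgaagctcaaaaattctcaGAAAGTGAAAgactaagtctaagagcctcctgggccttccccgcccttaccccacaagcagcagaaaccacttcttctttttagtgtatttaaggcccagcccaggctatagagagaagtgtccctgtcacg
Cyba: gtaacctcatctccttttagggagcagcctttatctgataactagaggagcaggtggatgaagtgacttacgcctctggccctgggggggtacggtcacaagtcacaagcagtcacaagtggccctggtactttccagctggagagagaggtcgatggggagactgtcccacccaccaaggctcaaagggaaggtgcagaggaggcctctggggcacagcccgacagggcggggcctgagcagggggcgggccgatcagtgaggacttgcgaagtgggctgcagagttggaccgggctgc
The Cybb window held 3 matches to the GAAA repeat, with first bases at -168, -124 and -29 from the start, and 1 to GAGGAA at 10 bases after it. The Ncf1 window held 1 match to the GAAA repeat at -82. The Cyba window held no match to either. Of 32851 promoter windows of the same length, 3.44% held the GAAA repeat and 28.3% held GAGGAA, and 5 windows (0.0152%) held the GAAA repeat at least 3 times. A match is a description of the letters and not evidence that a factor binds there.

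Cybb, on chromosome X from 9435252 to 9487771 (ENSMUSG00000015340.6, minus strand, 15 exon blocks in the table, mm10), was the member that moved most. Levels are counts scaled to a common library size (CPM), with library sizes adjusted by TMM. In BMDM it stood at 205 and 209 CPM at rest and at 1803 and 1799.9 CPM after LPS. In hMPDM it went from 209 to 1763 CPM, and in RAW from 972 to 1833 CPM. Under TMM scaling the resting BMDM and hMPDM libraries thus lay together at the low end, with the resting RAW library well above them. All 4 LPS libraries then lay together at the top. Scaled by library totals, RAW after LPS (2100) stood above BMDM (1495 and 1492) and hMPDM (1467) after LPS. With reads counted over a whole culture, a change in the share of cells that express a gene and a change in RNA per cell cannot be told apart.

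In BMDM the rise of Cybb was 8.70-fold (log2 3.12, SE 0.0371, adjusted p = 4.93e-33, edgeR quasi-likelihood test with Benjamini-Hochberg adjustment over all tested genes). Each SE here is the absolute log2 value over the root of the test's F statistic and is no replicate error. All 5 members rose in BMDM, where 31.7% of tested genes were called higher and 31.1% lower at an adjusted p under 0.05. The median log2 change of the 5 was 0.95, against -0.02 over all tested genes. These calls depend on scaling in 1 case. With libraries scaled by total counts alone, the median of all tested genes shifted by -0.37, the calls went from 3945 higher and 3870 lower to 1997 and 7616, and Cyba was no longer called.

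Cyba, the membrane partner (ENSMUSG00000006519.10, chromosome 8, 122424772 to 122432940, minus strand, 6 exon blocks), had the smallest rise in BMDM and hMPDM. It stood at 440.4 and 433 CPM in resting BMDM and at 562 and 605 CPM after LPS. In hMPDM it went from 407 to 587 CPM and in RAW from 387 to 499 CPM. Under TMM scaling the RAW library after LPS stayed below every other LPS library. With library totals as the scale, the BMDM states overlapped (470 and 463 at rest, 466 and 501 after LPS). RAW after LPS (572) then stood above every other LPS library. In BMDM the log2 change was 0.42 (SE 0.0377, adjusted p = 3.98e-11), and with library totals as the scale it was 0.06 (adjusted p = 0.164). Cyba therefore rose with TMM scaling and could not be told from no change with total counts.

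Ncf1, the organizer subunit (ENSMUSG00000015950.9, chromosome 5, 134220053 to 134229625, minus strand, 11 exon blocks), rose next most after Cybb in BMDM. It went from 388 and 393 CPM to 1186 and 1215 CPM, a 3.08-fold rise (log2 1.62, SE 0.0349, adjusted p = 1.97e-26). The hMPDM libraries held 463 CPM at rest and 1105.5 CPM after LPS. The RAW libraries held 299 and 401 CPM. After LPS the RAW library was thus at about the resting level of BMDM, and below resting hMPDM. Ncf1 shares 408 bases with the antisense gene Gtf2ird2, and 7.45% of the 50-base stretches of its transcripts, the length of a read, also occur in transcripts of Gtf2ird2 or Zhx3. Gtf2ird2 had 761 counts over the 8 libraries and Ncf1 53601.

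Ncf4, which encodes p40phox (ENSMUSG00000071715.7, chromosome 15, 78244801 to 78262580, plus strand, 11 exon blocks), nearly doubled in BMDM. It went from 131 and 125 CPM to 243 and 249 CPM (log2 0.95, SE 0.0420, adjusted p = 1.98e-18). In hMPDM it went from 117 to 259 CPM and in RAW from 190.5 to 245 CPM. As with Cybb, under TMM scaling resting RAW lay between the other resting libraries and the LPS libraries, which stood close together. With library totals as the scale, resting RAW (234) stood above BMDM (202 and 206) and hMPDM (215) after LPS for Ncf4.

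Rac2, the GTPase of blood cells (ENSMUSG00000033220.6, chromosome 15, 78559169 to 78572783, minus strand, 7 exon blocks), rose modestly. In BMDM it went from 522 and 525 CPM to 749 and 775 CPM (log2 0.54, SE 0.0349, adjusted p = 2.03e-14), and the log2 change was 0.18 with library totals as the scale (adjusted p = 2.43e-05). In hMPDM it went from 475 to 764 CPM and in RAW from 447 to 569 CPM. Its close relative Rac1, made in most cell types, stood at 295 and 293 CPM in resting BMDM and at 331 and 331 CPM after LPS (log2 0.17, adjusted p = 0.000201). Rac1 fell by 0.20 with library totals as the scale, so its direction depends on the scaling.

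**Figure D1:**
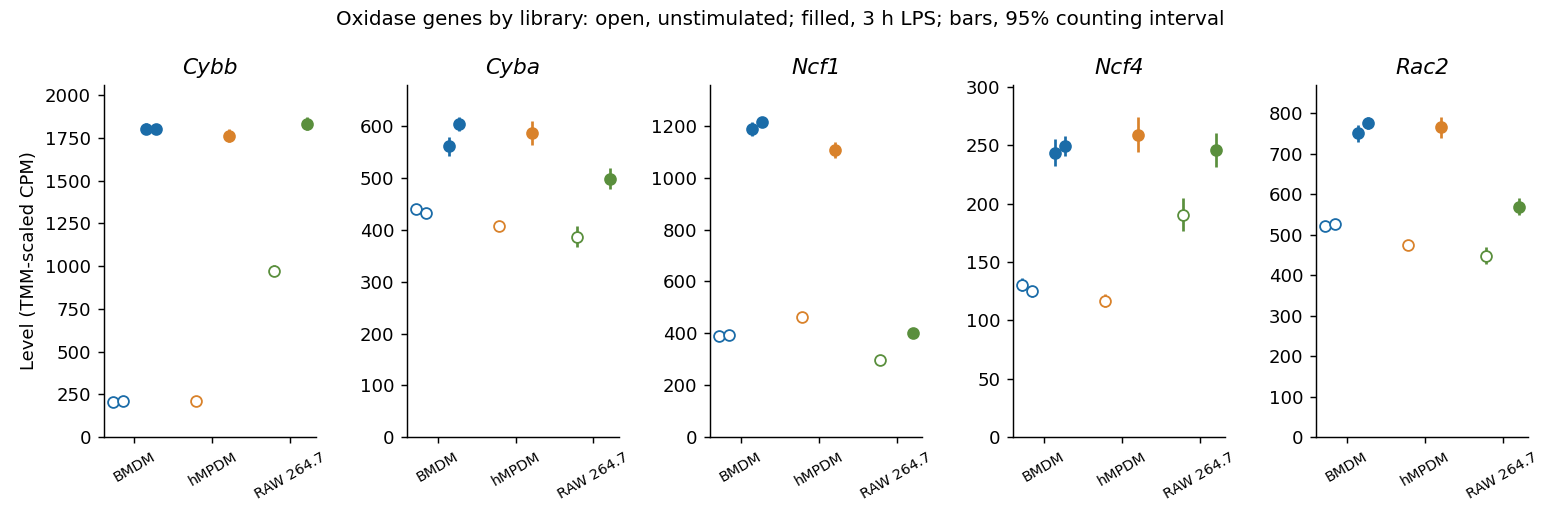
Level of each member in each of the 8 libraries, as TMM-scaled CPM, by cell type and state (open, at rest; filled, LPS), with bars for the exact 95% counting interval of each library. For Cybb the 4 LPS libraries lie together between 1763 and 1833 CPM, while at rest RAW (972 CPM) stands apart from BMDM (205 and 209 CPM) and hMPDM (209 CPM).

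The LPS responses of hMPDM and RAW each rest on 1 library against 1 library. They have no replicate check and no p-value, and their 95% intervals are exact binomial ones that cover counting error only. In hMPDM, Cybb was 8.44-fold higher after LPS (8.11 to 8.79), Ncf1 2.39-fold (2.30 to 2.47) and Ncf4 2.22-fold (2.06 to 2.38). The 3 members at or past 2-fold compare with 11.2% of tested genes at least 2-fold higher. Rac2 was 1.61-fold (1.55 to 1.67) and Cyba 1.44-fold (1.38 to 1.51). With library totals as the scale, Cybb alone was past 2-fold.

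In RAW the member with the largest ratio was again Cybb, at 1.89-fold (1.81 to 1.96). Ncf1 was at 1.34-fold (1.25 to 1.45), Ncf4 at 1.29-fold (1.17 to 1.42), Cyba at 1.29-fold (1.21 to 1.38) and Rac2 at 1.27-fold (1.20 to 1.35). All 5 ratios lay above 1 and none reached 2-fold, a size that 5.38% of tested genes reached upwards. The 4 members other than Cybb thus had nearly equal ratios in RAW, whereas in hMPDM the ratios of the same 4 ran from 1.44 to 2.39.

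**Figure D2:**
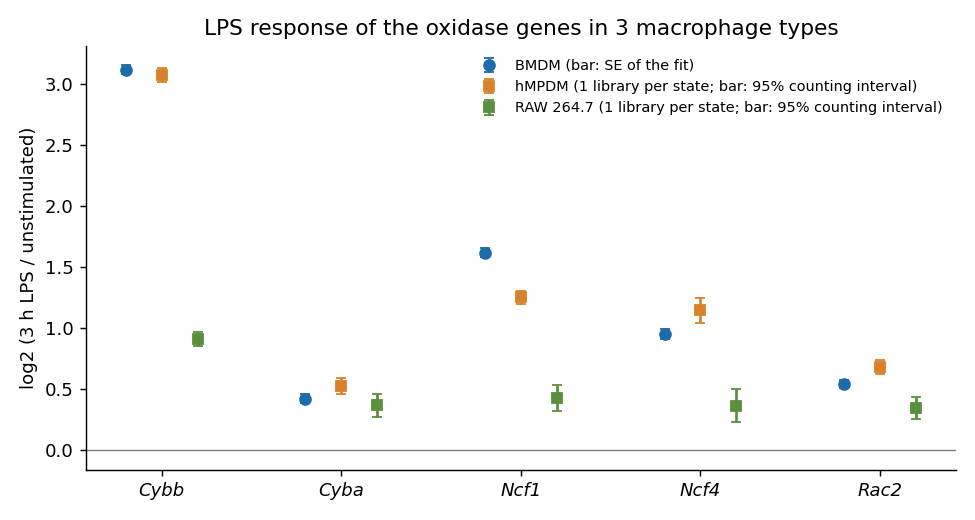
Log2 ratio of LPS over rest for each member, by cell type. Bars are the SE of the fit for BMDM (2 libraries per state) and exact 95% counting intervals for hMPDM and RAW (1 per state), and Cybb stands at 3.12 in BMDM, 3.08 in hMPDM and 0.92 in RAW.

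A single LPS effect fitted over the 3 cell types, with cell type as a term, was called for all 5 members, where 25.0% of tested genes were called higher. The estimates were 2.60 for Cybb (SE 0.392, adjusted p = 0.00219), 1.24 for Ncf1 (SE 0.194, adjusted p = 0.00251), 0.86 for Ncf4 (adjusted p = 0.00181), 0.53 for Rac2 (adjusted p = 0.00113) and 0.43 for Cyba (adjusted p = 0.00132). In this fit the cell types stand in as replicates of 1 LPS effect, and BMDM, with the most libraries, weighs most. The responses were not of equal size, for Cybb 3.12 in BMDM and 0.92 in RAW. Each estimate is thus an average that need not hold for any single cell type. With library totals as the scale, Cyba was not called (log2 0.13, adjusted p = 0.115), and over all tested genes the calls went from 3110 higher and 3011 lower to 1623 and 6219.

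Whether the response differed between cell types was tested as a difference of responses, taking the spread of the BMDM pairs for the single hMPDM and RAW libraries. RAW responded less than BMDM for 4 of 5 members, where 12.7% of tested genes were called lower and 10.0% higher in this comparison. The difference was -2.21 for Cybb (SE 0.0636, adjusted p = 4.83e-21), -1.19 for Ncf1 (SE 0.0769, adjusted p = 3.29e-13) and -0.59 for Ncf4 (SE 0.0894, adjusted p = 6.78e-06). These 3 kept their sign and their call with library totals as the scale. Under that scale the median of all tested genes shifted by 0.27 and the calls went from 1246 higher and 1586 lower to 3052 and 987. With the coefficient of variation of every gene set at 10%, Ncf4 kept its value and lost its call (adjusted p = 0.175).

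The remaining members did not show a firm difference between RAW and BMDM responses. For Rac2 it was -0.20 (SE 0.0708, adjusted p = 0.0431), but 0.07 with library totals (adjusted p = 0.492) and not called with the BMDM replicate number as a block (adjusted p = 0.111). Without 1 BMDM library the call was also lost in 3 of 4 cases, at adjusted p = 0.0956 and 0.0664 without resting replicate 1 or 2, and 0.0601 without LPS replicate 2. For Cyba the difference was -0.05 (SE 0.0772, adjusted p = 0.712), and 0.21 with library totals (adjusted p = 0.0295).

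The response of hMPDM differed from that of BMDM for 1 member, where 494 of 12461 tested genes were called higher and 485 (3.89%) lower. Ncf1 rose less, by -0.37 (SE 0.0612, adjusted p = 0.000101). The difference for Cybb was -0.04 (adjusted p = 0.813), for Cyba 0.11 (adjusted p = 0.472), for Rac2 0.14 (adjusted p = 0.212) and for Ncf4 0.20 (adjusted p = 0.153). All comparisons with BMDM in 1 state share the same 2 BMDM libraries, so their values are set side by side and not correlated.

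At rest, all 5 members were called between RAW and BMDM, where 27.1% of tested genes were called higher and 31.3% lower. Cybb was 4.69-fold higher in RAW (log2 2.23, SE 0.0467, adjusted p = 7.99e-26) and Ncf4 1.49-fold higher (0.58, adjusted p = 2.01e-08). Ncf1 was lower (-0.39, adjusted p = 9.00e-07), as were Rac2 (-0.23, adjusted p = 0.000418) and Cyba (-0.17, adjusted p = 0.00925). With library totals the median of all tested genes shifted by 0.20 and the calls went from 3381 higher and 3901 lower to 4485 and 2868. Cyba then stood at 0.024 and Rac2 at -0.03, neither of them called, while Cybb (2.43), Ncf4 (0.78) and Ncf1 (-0.19) kept their calls. With the coefficient of variation set at 10%, Cybb and Ncf4 were called and Ncf1 (adjusted p = 0.0775), Rac2 (0.326) and Cyba (0.461) were not, and DESeq2's test did not call Cyba (adjusted p = 0.181).

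After LPS 3 members were lower in RAW than in BMDM, where 36.4% of tested genes were called lower and 29.8% higher. Ncf1 was lowest, at 0.334 of the BMDM level (log2 -1.58, SE 0.0507, adjusted p = 1.28e-21). Rac2 was at -0.42 (adjusted p = 7.17e-09) and Cyba at -0.23 (adjusted p = 0.000352). Cybb did not pass the test (0.03, SE 0.0418, adjusted p = 0.605) and neither did Ncf4 (-0.01, adjusted p = 0.922). With library totals the median of all tested genes shifted by 0.47, and Cybb was called higher in RAW (0.49, adjusted p = 4.84e-13), as were Ncf4 (0.46) and Cyba (0.24), with Rac2 at 0.043. Calls over all tested genes went from 3715 higher and 4534 lower to 6105 and 2813. Of the 5, Ncf1 alone was lower in RAW under both scales (-1.11 with totals). With the coefficient of variation set at 10%, Cyba lost its call (adjusted p = 0.301).

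In both states the 5 members in hMPDM stood within a log2 difference of 0.25 from BMDM. At rest 2 of 5 members were called, where 19.0% of tested genes were called higher and 19.2% lower: Ncf1 was higher in hMPDM (0.25, SE 0.0425, adjusted p = 2.44e-05) and Rac2 lower (-0.14, adjusted p = 0.00965). Cybb stood at 0.01 (SE 0.0475, adjusted p = 0.879), Cyba at -0.10 (adjusted p = 0.0836) and Ncf4 at -0.13 (adjusted p = 0.0583). After LPS 1 of 5 was called, where 1562 of 12461 tested genes were called higher and 1559 (12.5%) lower. The member called was Ncf1, now lower (-0.12, SE 0.0438, adjusted p = 0.0443). Cybb was at -0.03, Cyba and Rac2 at 0.00, and Ncf4 at 0.07. Without 1 BMDM library, the Rac2 call at rest was lost in 1 of 4 cases (adjusted p = 0.0601 without resting replicate 2), and the Ncf1 call after LPS in 3 of 4 (0.0797 and 0.0716 without resting replicate 1 or 2, 0.107 without LPS replicate 2). None of these 3 calls, nor that of the Ncf1 difference of responses, remained when every gene was given a coefficient of variation of 10% in place of the 2.27% estimated from the BMDM pairs.

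The hMPDM library after LPS was examined for reads that may not be its own. For this, 16 genes were picked that stood at 5 CPM or more in BMDM in both states and at no more than 5% of the BMDM level in resting hMPDM. Their low level at rest (1.35% of BMDM) follows from that choice, and after LPS they stood at 10.8% of BMDM. Whether that level came from hMPDM cells, from other cells or from reads of another library was not tested. After subtracting this share of each gene's BMDM value, Ncf1 after LPS was at -0.14 against BMDM (adjusted p = 0.0185). Its difference of responses was -0.38 (adjusted p = 4.99e-05), and 1 member was called in each of these comparisons. Taking out a share of the BMDM profile tends by its making to widen differences from BMDM, so these calls are no check on the results above.

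**Figure D3:**
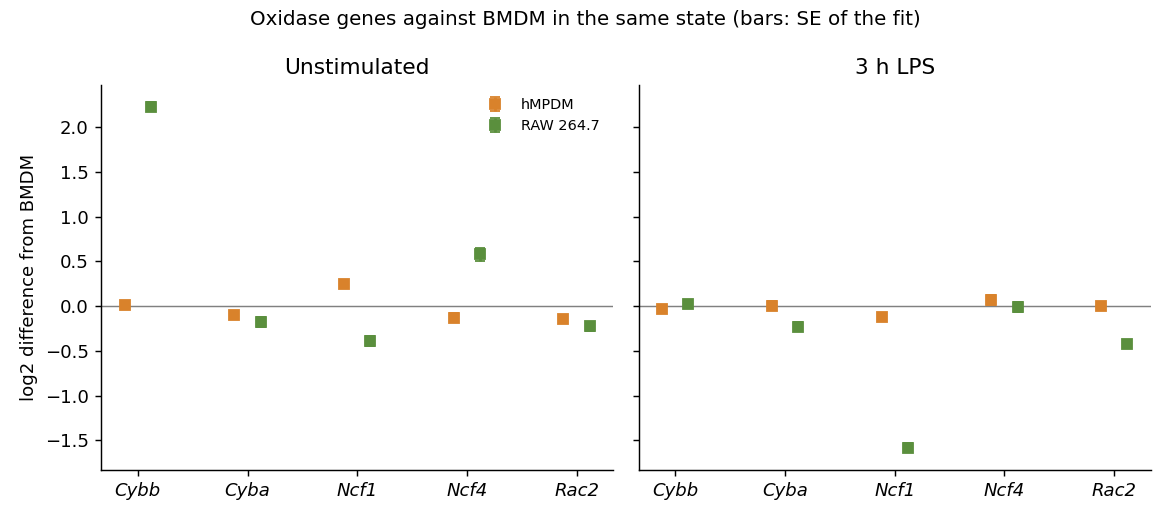
Log2 difference of hMPDM and of RAW from BMDM for each member, at rest and after LPS, with bars of 1 SE of the fit, mostly smaller than the symbols. RAW stands at 2.23 for Cybb at rest and 0.03 after LPS, while for Ncf1 it goes from -0.39 to -1.58.

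The order of levels over the 6 groups, on TMM-scaled CPM, differed by member. For Cybb it ran RAW, BMDM and hMPDM after LPS, of which neither RAW nor hMPDM differed from BMDM by the test under TMM scaling, then RAW at rest, then hMPDM and BMDM at rest, which did not differ by the test. For Ncf4 the 3 LPS groups came first, again with no called difference from BMDM under TMM scaling, then resting RAW, BMDM and hMPDM. This order turned with library totals as the scale, where resting RAW (234) stood above BMDM (202 and 206) and hMPDM (215) after LPS. For Ncf1 it ran BMDM and hMPDM after LPS, then resting hMPDM, RAW after LPS (401 CPM) and resting BMDM (388 and 393 CPM), whose difference was not tested, and last resting RAW. For Cyba and Rac2, hMPDM and BMDM after LPS did not differ by the test and led RAW after LPS, and the 3 resting groups came last, a place of RAW that turned with library totals as the scale: RAW after LPS then led for Cyba (572 against 466, 501 and 488) and for Rac2 (652 against 622, 642 and 636). Among the resting groups RAW was first for Cybb and Ncf4 and last for Ncf1. It was also last for Cyba and Rac2 under TMM, though not with totals, and the ratio of resting hMPDM to RAW for Cyba was 1.05 with a counting interval that includes 1 (0.995 to 1.12).

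To set members against each other, CPM was divided by each gene's exon length in the table. These lengths merge all annotated exons (5808 bases for Cybb, 758 for Cyba, 3663 for Ncf1, 2021 for Ncf4, 3036 for Rac2), so a level between genes is approximate. Cyba was highest in every library, with 581 and 571 CPM per kb in resting BMDM. Cybb was lowest in resting BMDM and hMPDM, at 35.3, 36.0 and 35.9 CPM per kb, and rose to 310.4, 309.9 and 304 CPM per kb after LPS. In RAW it ranked second already at rest, at 167 CPM per kb, and stood at 316 CPM per kb after LPS.

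The ratio of Cyba to Cybb per length fell from 16.5 and 15.8 in resting BMDM to 2.39 and 2.57 after LPS. In hMPDM it went from 14.9 to 2.55 and in RAW from 3.05 to 2.09. The membrane pair was therefore far apart in resting BMDM and hMPDM and close in the other 5 libraries. The ratio of Ncf1 to Ncf4 was 1.64 and 1.74 in resting BMDM and 2.69 in both LPS libraries, 2.19 and 2.36 in hMPDM, and 0.865 and 0.902 in RAW, the one cell type in which Ncf4 exceeded Ncf1. The ratio of Rac2 to Rac1 was 1.55 and 1.56 in resting BMDM and 1.98 and 2.05 after LPS. It went from 1.37 to 1.99 in hMPDM and from 1.65 to 2.11 in RAW, so Rac2 exceeded Rac1 per length in all 8 libraries. These ratios within a library do not depend on its scaling.

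Of the summed level of the 5 members per length, Cybb made up 3.68% and 3.80% in resting BMDM and 17.8% and 17.0% after LPS. In hMPDM its share went from 3.93% to 17.2%, and in RAW from 16.7% to 22.7%. Resting RAW thus had nearly the Cybb share of stimulated BMDM. Its sum of 1001 CPM per kb was near the 959 and 949 of resting BMDM and below the 1743 and 1818 of BMDM after LPS. Unlike the shares, these sums depend on the scaling. With library totals the median of all tested genes shifted by 0.20 for RAW against BMDM at rest, which raises the resting RAW sum against that of BMDM.

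**Figure D4:**
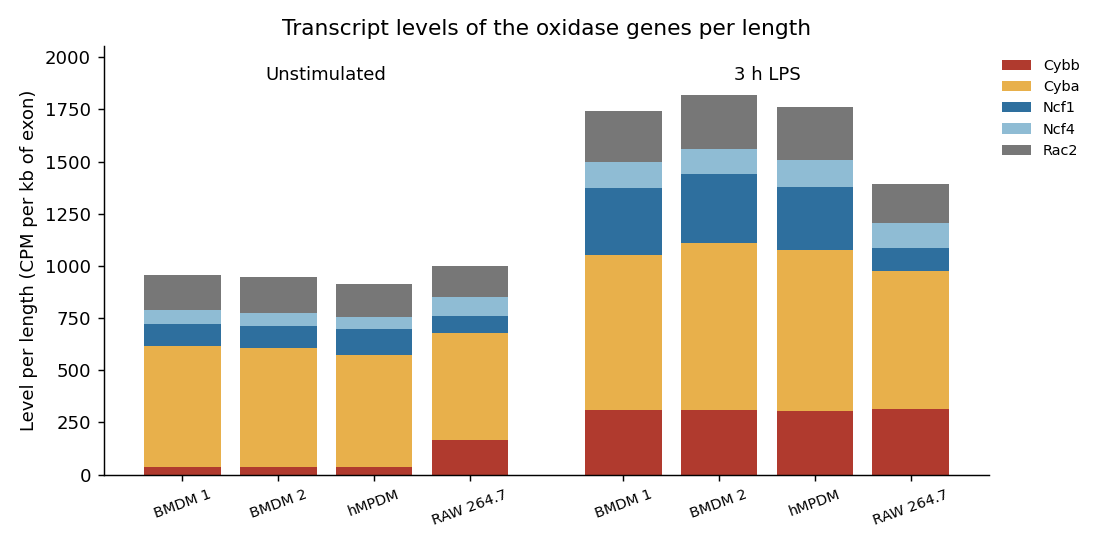
Level of each member as CPM per kb of exon length, stacked in 1 bar for each of the 8 libraries. Cyba is the tallest part of every bar, and the Cybb part grows from 35.3 CPM per kb in resting BMDM replicate 1 to 310.4 CPM per kb after LPS.

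Over the 6 group levels (log2, BMDM replicates averaged), the members fell into differing patterns, given as a description with no p-value. Pearson's r was 0.99 between Cybb and Ncf4 and 0.99 between Cyba and Rac2. It was 0.94 between Ncf1 and Rac2 and 0.48 between Cybb and Ncf1. The points share libraries and scaling, and with 6 of them, of which 3 are LPS groups, high values are easily reached. Of 9679 genes at a mean of 5 CPM or more, the genes most like Cybb were Lrrc59, Zfp719 (both 0.99) and Gsap (0.99). Those most like Ncf4 were Lrrc59, Csnk1g3 and Eif4g2, all at 0.995 or above. Those most like Cyba were Tnfrsf1b, Heatr6 and Atf3, all at 0.993 or above, those most like Ncf1 included Tmem168 and Slfn8, both at 0.997, and those most like Rac2 were Irak2, Zfp36 and Abhd16a, all at 0.995 or above. Gsap, for example, was at 22.4 CPM in resting BMDM, 108 CPM after LPS and 67.5 CPM in resting RAW.

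Partners in assembly and activation were followed as a list of 16 genes, all tested. In BMDM after LPS 10 were higher and 2 lower, where 31.7% of all tested genes were higher and 31.1% lower. Their median log2 change was 0.15, against -0.02 over all tested genes. With library totals 3 were higher and 13 lower (median -0.21), where 1997 of 12461 tested genes were higher and 7616 lower. The 3 that rose under both scales were Hvcn1, the proton channel that balances the charge the oxidase moves (0.89), Prkcd, a kinase that phosphorylates p47phox (0.69), and Prex1, an exchange factor that loads Rac with GTP (0.54). Hvcn1 went from 155 and 154 CPM to 279 and 290.3 CPM in BMDM, from 167 to 219 CPM in hMPDM and from 37.9 to 48.2 CPM in RAW. The 2 that fell were Pak1 (-0.36), a kinase downstream of Rac, and Cybc1 (-0.14), a chaperone of the membrane pair. The further TMM calls (Rac1, Vav1, Pak2, Elmo1, Dock2, Arhgdia and Arhgdib) were at most 0.24.

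In resting RAW 4 of these partners were higher and 10 lower than in BMDM (median log2 -0.30). The shares over all tested genes were 27.1% higher and 31.3% lower. With library totals 6 of the partners were higher and 6 lower, where 4485 of 12461 tested genes were higher and 2868 lower. Prkcb, another kinase of p47phox, stood at 76.0 and 77.5 CPM in resting BMDM and at 43.2 CPM in resting hMPDM. In RAW it had 2 counts in either state, and its resting level was 147-fold lower than in BMDM (counting interval 40.6 to 1213). Hvcn1 was lower by -2.03 (adjusted p = 1.60e-16), Prkcd by -0.85 and Prex1 by -0.72, and Pla2g4a, a phospholipase whose product arachidonic acid activates the oxidase, was higher by 1.26 (adjusted p = 3.30e-12). These 4 kept their direction with library totals. In resting hMPDM 5 partners were higher and 5 lower, where 19.0% and 19.2% of all tested genes were.

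Of 12 transcription factors known to act on oxidase genes, 7 rose and 3 fell in BMDM after LPS (median log2 0.74). Of all tested genes, 31.7% rose and 31.1% fell. With library totals 7 of the 12 rose and 4 fell, where 1997 of 12461 tested genes rose and 7616 fell. Irf1, an interferon regulatory factor, went from 37.2 and 37.1 CPM to 1267 and 1302 CPM in BMDM, from 50.1 to 1199 CPM in hMPDM and from 26.7 to 53.3 CPM in RAW. Its response was smaller in RAW than in BMDM by -4.12 (adjusted p = 2.88e-15). Irf2 also rose in BMDM (1.74), and Cebpa (-2.28) and Fli1 (-1.41) fell. For RAW against BMDM, 7 of the 12 responses were lower and 2 higher, where 12.7% of all tested genes were lower and 10.0% higher. With library totals 5 were lower and 3 higher, where 987 of 12461 tested genes were lower and 3052 higher.

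Receptors that trigger the oxidase during phagocytosis, with their signalling, formed a list of 10. In BMDM 5 rose and 2 fell, where 31.7% of all tested genes rose and 31.1% fell. With library totals 4 of the list rose and 5 fell, where 1997 of 12461 tested genes rose and 7616 fell. Fcgr1, the high-affinity IgG receptor, rose by 2.26, from 34.1 and 32.7 CPM to 165 and 157 CPM. It went from 56.4 to 251 CPM in hMPDM and from 49.4 to 27.6 CPM in RAW, and its response in RAW differed from BMDM by -3.10 (adjusted p = 1.57e-14). The inhibitory receptor Fcgr2b (1.71) and the kinase Syk (1.08) rose, and the adaptor Card9 (-0.66) and Fcgr3 (-0.17) fell. In resting RAW 8 of 10 were lower than in BMDM and 2 higher, under both scales, where 31.3% of all tested genes were lower and 27.1% higher (3901 and 3381 genes, and 2868 and 4485 with totals).

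Of 9 enzymes that supply NADPH, 4 rose and 1 fell in BMDM (median log2 0.17). Of all tested genes, 31.7% rose and 31.1% fell. With library totals 2 of the 9 rose and 6 fell, where 1997 of 12461 tested genes rose and 7616 fell. Nadk, which makes NADP+ from NAD+, rose by 0.73 and Pgd, of the pentose phosphate pathway, by 0.51, both under either scale. G6pdx, the entry enzyme of that pathway, was at 0.23, and at -0.14 with library totals. Idh1 fell by 0.66.

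Genes that remove superoxide and peroxide, the products of the oxidase, formed a list of 21, of which 20 were tested. In BMDM 15 rose and 2 fell (median log2 0.35), where 31.7% of all tested genes rose and 31.1% fell. With library totals 8 rose and 8 fell, where 1997 of the 12461 tested genes rose and 7616 fell. Sod2, the mitochondrial superoxide dismutase, rose by 3.65, from 55.5 and 56.0 CPM to 708 and 691 CPM. It went from 67.0 to 593 CPM in hMPDM and from 149 to 336 CPM in RAW, and the response in RAW was smaller by -2.48 (adjusted p = 2.75e-18). Slc7a11, the cystine carrier that feeds glutathione synthesis, rose by 3.16 and Prdx5, a peroxiredoxin, by 1.76. Gclc, which makes the glutathione precursor, fell by 0.86 and Gpx4 by 0.18.

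The cell type labels were checked against markers. All 10 macrophage markers were counted in every library, with summed levels of 14535 to 19211 CPM. Lyz2 was the largest part of each sum, from 8621 to 12514 CPM. In resting RAW 4 of the 10 were higher than in BMDM and 5 lower, where 27.1% of all tested genes were higher and 31.3% lower. After LPS 2 were higher and 7 lower, where 29.8% of all tested genes were higher and 36.4% lower. Csf1r was at 1617 CPM in resting RAW, against 1353 and 1296 CPM in resting BMDM. C1qa in RAW was at 2.88 and 0.856 CPM, against 65.9 to 94.5 CPM in BMDM. Mertk in RAW was at 21.5 and 9.42 CPM, against 54.2 to 109 CPM in BMDM. Neutrophils are rich in this oxidase, and a list of 12 neutrophil markers summed to 81.7 and 86.4 CPM in resting BMDM and to 135 and 130 CPM after LPS. It summed to 45.4 and 105 CPM in hMPDM and to 16.0 and 13.1 CPM in RAW, where 8 and 9 of the 12 were at 0. Csf3r was the largest part of the sum in hMPDM (24.6 and 74.4 CPM) and in RAW (11.5 and 8.56 CPM). Ly6g was at 0 in all libraries but 1 resting BMDM library (0.0484 CPM). The sum of the list rose with LPS in BMDM and hMPDM, but not every marker did, and in hMPDM Mpo went from 3.85 to 1.96 CPM. The part of the list in the member results was not tested. B cell, dendritic cell and fibroblast markers summed to under 3 CPM in every library, T and NK cell markers to at most 10.9 CPM and progenitor markers to at most 32.1 CPM.

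Library totals ranged from 3116434 counts (RAW at rest) to 19307312 (BMDM at rest, replicate 2). The least counted member value was 728 counts, for Ncf4 in resting RAW. The BMDM replicates differed by more than counting noise (chi-square per degree of freedom 1.60 at rest and 1.69 after LPS) and were kept as separate libraries.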

How the data were processed

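Gene counts came from the authors' deposited table of raw, unnormalized read counts, whose layout is that of featureCounts per the file headers. Per the submitters' processing notes, cutadapt, STAR, SAMtools, bedtools and featureCounts were used with mm10. No source used here gives versions, the annotation or the strand setting. Per the labels' protocols, libraries were made with a stranded kit and read from 1 end. Of the value columns, 2, whose names begin with hMPDM, matched no sample and were not used. Symbols came from a table of gene names.

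Counts were analysed with edgeR 4.0.16 in R 4.3.3 (filterByExpr, TMM, quasi-likelihood fit, 1 coefficient per group, all 8 libraries, 2 residual degrees of freedom, all from BMDM). A fit of cell type plus LPS had 4. Calls were at a Benjamini-Hochberg adjusted p under 0.05. The code was tested on simulated data. Alternatives were other scalings, no filter, DESeq2 1.42.0, a set spread, a replicate block and libraries left out. The members and lists were chosen with earlier results of these data known. The members are named throughout, as are partners. Of the other lists, the 3 largest called rises and falls in BMDM at 5 CPM or more are named, and for each member the 3 most correlated genes. Some genes that these rules select are not reported here. Intervals (95%) cover counting error only.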

Additional observations from a re-analysis of the deposited data

Results flagged for a closer look

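Differences of the LPS response between cell types, as tested values, are gathered here because the same stimulus gave responses of different size. For RAW minus BMDM the log2 difference was -2.21 for Cybb, -1.19 for Ncf1, -0.59 for Ncf4 and -0.20 for Rac2, whose call was lost under most alternatives and whose sign turned with library totals as the scale. For hMPDM minus BMDM it was -0.37 for Ncf1.

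List genes named in the text whose response in RAW differed from BMDM by a log2 value of 2 or more were Irf1 (-4.12), Fcgr1 (-3.10) and Sod2 (-2.48). RAW and hMPDM had 1 library per state, so each of these tests takes its spread from the BMDM pairs.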

How the results depend on the processing

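The BMDM and common LPS responses called 4 or 5 members in the same direction under every alternative run. With library totals as the scale, 3 members were called in RAW against BMDM at rest, 0 in hMPDM against BMDM after LPS, and 1 reached 2-fold in hMPDM after LPS. The signs that turned under that scale were those of Cyba (0.024) in RAW against BMDM at rest, of Cyba (0.24), Ncf4 (0.46) and Rac2 (0.043) after LPS, and of Cyba (0.21) and Rac2 (0.070) in RAW minus BMDM. With DESeq2's test, 1 member was called in hMPDM against BMDM at rest and 0 after LPS, where DESeq2's size factors in edgeR also gave 0. With the spread set at 10%, the calls were 0 in hMPDM against BMDM at rest, 0 after LPS and 0 in hMPDM minus BMDM, and 2 in RAW against BMDM at rest, 2 after LPS and 2 in RAW minus BMDM. Without 1 BMDM library, hMPDM against BMDM called 1 to 4 members at rest and 0 to 1 after LPS. The deviations between BMDM replicates at rest and after LPS had a correlation of -0.04. Much of such deviations is counting noise (chi-square per degree of freedom 1.60 and 1.69). The correlation therefore cannot show whether the replicate numbers pair the libraries. With the replicate number as a block, 0 members were called in hMPDM against BMDM after LPS (Ncf1 -0.12, adjusted p = 0.136), and 3 in RAW minus BMDM. In all, 380 member values under alternatives kept direction and side of the threshold, 29 lost a call, 5 gained one and 8 untested ones moved. The sign turned for 6 values called in at least 1 of the fits, given above, and for 7 small ones called in neither.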

Other observations

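Among 9 genes of other NADPH oxidases and their partners, 2 had enough counts to be tested. Nox1, the catalytic subunit of an oxidase best known from colon epithelium, had 4 and 3 counts in resting BMDM, 15 and 26 after LPS, and 0 and 3 in RAW. In hMPDM it had 30 counts at rest (1.80 CPM) and 182 after LPS (39.7 CPM). The level in hMPDM after LPS was 22.0-fold that at rest (counting interval 14.9 to 33.6) and 18.7-fold that of BMDM after LPS (13.2 to 26.9). Against BMDM the log2 difference was called at rest (3.19, adjusted p = 5.00e-06) and after LPS (4.21, adjusted p = 1.20e-15). Nox1 overlaps the antisense gene Cstf2 by 399 bases and no source used here gives the strand setting of the counting, so reads of the overlap cannot be assigned. Cstf2 stood at 52.2 and 75.9 CPM in the hMPDM libraries and at 42.4, 41.9, 50.5 and 49.3 CPM in those of BMDM.

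Genes that remove superoxide and peroxide were mostly lower in hMPDM than in BMDM, under TMM and with library totals alike. At rest 16 of 20 were lower and 1 higher, where 19.2% of all tested genes were lower and 19.0% higher, and after LPS 17 were lower and none higher, where 12.5% of all tested genes were lower. The median log2 difference was -0.64 at rest and -0.72 after LPS, against 0.00 and -0.02 over all tested genes. Cat, which encodes catalase, stood at 680.5 and 685 CPM in resting BMDM, 262 CPM in resting hMPDM (log2 -1.38, adjusted p = 1.39e-20) and 200.1 CPM in resting RAW. Nox1 and Cat were singled out after their values were seen.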
